A study of Homo sapiens with 21 samples.

Results

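Neocarzinostatin (NCS) is a drug that cuts both strands of DNA, and the change described here is the one between 4 h and 8 h after it was added to hTERT-HPNE cells. Its libraries were chosen by their labels alone. They are the 3 labelled NCS at 8 h and the 3 labelled NCS at 4 h, 6 of the 21 RNA-seq libraries of the series. All 19694 genes whose values varied were followed, out of 23368 genes listed. The other 3674 had a value of 0 in every library. The comparison and the gene lists used below were chosen with earlier results of these data known. The shares of list members are therefore a description and no independent test.

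hTERT-HPNE is a human pancreatic cell line that was immortalized with telomerase and not transformed. The NCS cells received 400 ng/ml NCS and the comparison cells 300 µM H2O2, an oxidant, in fresh medium that held EGF, glucose and puromycin. RNA was taken before treatment and at 4, 8 and 24 h, with 3 biological replicates in each of the 7 groups. No untreated library was taken at 4 h or 8 h, so the time after NCS and the time after the change of medium cannot be told apart. The values are rLog values, which are log2 read counts normalized for library size by the authors, with differences drawn toward 0 for genes with few reads. The values are not divided by gene length, so levels of different genes were not ranked, and the levels of cell type markers serve only as a check of the cells.

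A double-strand break activates the kinase ATM, which stabilizes p53, and p53 then switches on its own inhibitors MDM2 and PPM1D together with genes of arrest, repair and death. The retinoblastoma proteins, kept active by the p53 target CDKN1A, hold back the E2F genes of the G1/S transition and, as part of the DREAM complex, the genes of mitosis. The integrated stress response is a separate program in which the factor ATF4 induces amino acid and redox genes, and the unfolded protein response raises the chaperones of the endoplasmic reticulum.

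From 4 h to 8 h the genes of DNA replication fell almost as one group, the mitotic genes, which were already low at 4 h, fell further in part, and genes of the integrated stress and unfolded protein responses rose. The p53 targets as a whole kept their mean level, but 16 of them fell and 14 rose. The p-values measure only the spread between replicates, pooled over all 7 groups of the series. At an adjusted p under 0.05 from limma, 1213 genes (6.16%) were higher and 1477 (7.50%) were lower at 8 h. The differences were small. No gene (0%) rose by more than 1 on the log2 scale, and 3 genes (0.0152%) fell by more than 1, which were KIF20A, CCNE2 and CDCA7. With no size limit and no adjustment for the number of genes, p was under 0.05 for 2191 higher and 2511 lower genes. The 3 values at 8 h did not overlap those at 4 h for 28.3% of genes, and the median difference over all genes was 2.78e-04.

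The 6 NCS libraries fell into their labelled groups. Over all genes, Euclidean distances between a 4 h and an 8 h library lay between 15.5 and 17.2, against 8.94 to 9.66 within the 4 h group and 9.90 to 10.7 within the 8 h group. Of the H2O2 libraries used for comparison, replicate 2 at 8 h lay farther from its group than the others, with a mean distance of 14.9 against 13.1 and 13.3 for replicates 1 and 3. Counts that rest on H2O2 are therefore given with and without it. All 10 mesenchymal markers tested had mean values over the 21 libraries of 9.26 or more, up to 20.04 for FN1. Of 11 duct markers tested, SOX9, MUC1, KRT7, KRT8 and KRT18 had means of 6.07, 6.09, 6.93, 7.93 and 11.62. The other 6, among them KRT19, CFTR and EPCAM, had means under 5, down to -1.90 for ONECUT1, and PDX1 was listed at 0 throughout. From 4 h to 8 h, 1 of 11 duct markers, 1 of 10 mesenchymal markers, 1 of 7 blood and endothelial markers and 0 of 5 acinar and islet markers passed the test. These were KRT18 and NES, which fell by 0.10 and 0.13, and CD68, which rose by 0.13, and each of these calls was lost when certain single NCS libraries were left out. Over all genes 6.16% were higher and 7.50% lower at 8 h. Each marker count rests on at most 1 gene, so no change of the markers as a group is read from it.

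**Figure D1:**
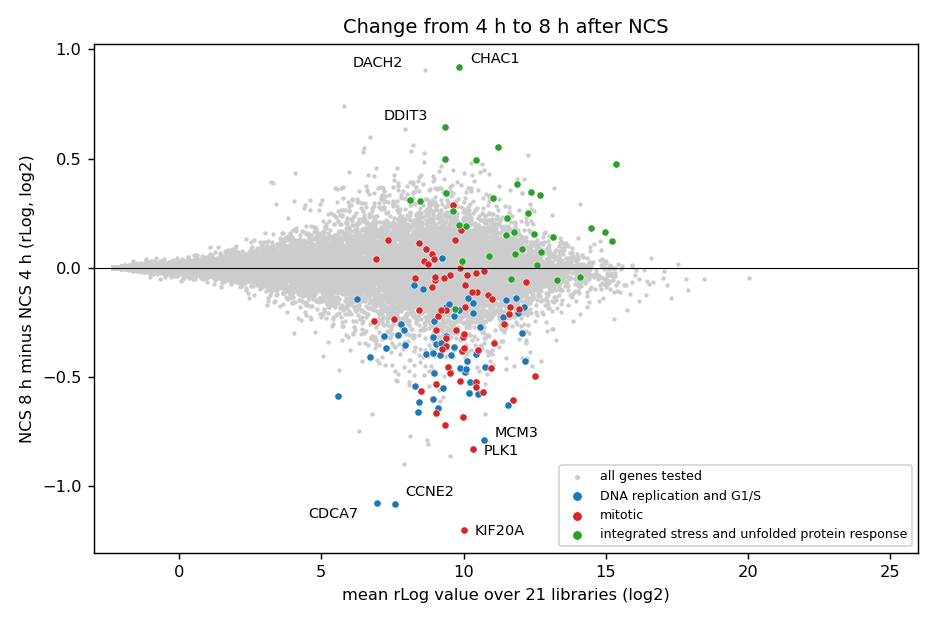
Each point is a gene, with its mean rLog value over the 21 libraries on the horizontal axis and the difference between NCS at 8 h and at 4 h on the vertical axis, both log2. The replication genes (blue) lay below 0 with 1 exception, mitotic genes (red) reached the deepest fall at KIF20A (-1.20), and stress response genes (green) reached the largest rise at CHAC1 (0.92).

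Among genes that passed the test and whose libraries did not overlap, the 15 largest falls included 5 genes of the mitotic list and 3 of the replication list. KIF20A, a kinesin that is needed for cytokinesis, had values of 10.59, 10.61 and 10.57 at 4 h and of 9.31, 9.40 and 9.45 at 8 h. Its libraries did not overlap and lay far apart (difference -1.20, SE 0.09, adjusted p = 5.03e-08), and it went on to between 8.44 and 8.58 at 24 h. CCNE2, the cyclin E2 that drives cells into S phase, had 8.47, 8.43 and 8.44 at 4 h and 7.27, 7.53 and 7.29 at 8 h (difference -1.08, SE 0.05, adjusted p = 5.11e-10). At 4 h CCNE2 lay above its untreated values of 8.25 to 8.37, and at 8 h below them. CDCA7, a chromatin factor of S phase, had 7.43, 7.69 and 7.46 at 4 h and 6.34, 6.51 and 6.49 at 8 h (difference -1.08, SE 0.08, adjusted p = 6.94e-08). The remaining 12 of the 15 largest falls lay between -0.67 and -0.90. They were PAQR4, PLK1, SAPCD2, MCM3, WDR76, FAM111B, TP73, CCNB2, DLGAP5, ATAD2, CDCA3 and PRRX2. TP73, which encodes the p53 relative p73, had 6.95, 6.94 and 6.96 at 4 h and 6.23, 6.13 and 6.24 at 8 h. PRRX2, a homeobox factor of mesenchyme, fell by 0.67.

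By the same rule, 5 of the 15 largest rises were on the stress response list. CHAC1, an enzyme that breaks down glutathione, had values of 8.71, 8.58 and 8.79 at 4 h and of 9.59, 9.62 and 9.62 at 8 h (difference 0.92, SE 0.10, adjusted p = 5.34e-06). At 4 h it had not risen above its untreated values of 8.72 to 8.88. DACH2, a transcriptional cofactor of development, had 8.18, 8.25 and 8.10 at 4 h, also within its untreated range, and 9.11, 9.07 and 9.06 at 8 h (difference 0.90, SE 0.04, adjusted p = 2.33e-11). It then stayed between 9.20 and 9.25 at 24 h. DDIT3, the stress response factor CHOP, rose by 0.64 and CCNG2, the unconventional cyclin G2, by 0.64. For CCNG2 the step was a return. Its values were 7.21, 7.30 and 7.18 at 4 h, below the untreated 7.83 to 7.97, and 7.86, 7.91 and 7.82 at 8 h. The other 11 of the 15 largest rises lay between 0.48 and 0.60 and were ASTN2, LURAP1L, DDIT4, CYFIP2, MBD5, MCC, ADM2, PAPPA, DNAJB9, TRIB3 and FAM214A. PAPPA, a protease that frees insulin-like growth factor from its binding proteins, had values of 11.32 to 11.41 in untreated cells, 12.06 to 12.20 at 4 h and 12.64 to 12.65 at 8 h, and it reached 13.21 to 13.29 in the 24 h libraries, with no overlap between any of these groups.

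The promoters of 4 genes are shown, those of a mitotic and a replication gene that fell by more than 1 and those of the 2 largest rises. That of CCNE2 was not used here. They are the 300 bases from 250 before to 50 after the start of the gene in RefSeq, on build GRCh38.p14, read 5′ to 3′ on the strand of the gene. All 4 genes lie on the plus strand. The reads were aligned to hg19, and only the gene symbols link both builds. Capitals mark matches to the motifs searched on both strands. KIF20A lies at chr5:138178862-138179161, CDCA7 at chr2:173354622-173354921, CHAC1 at chr15:40953221-40953520 and DACH2 at chrX:86148201-86148500.
KIF20A: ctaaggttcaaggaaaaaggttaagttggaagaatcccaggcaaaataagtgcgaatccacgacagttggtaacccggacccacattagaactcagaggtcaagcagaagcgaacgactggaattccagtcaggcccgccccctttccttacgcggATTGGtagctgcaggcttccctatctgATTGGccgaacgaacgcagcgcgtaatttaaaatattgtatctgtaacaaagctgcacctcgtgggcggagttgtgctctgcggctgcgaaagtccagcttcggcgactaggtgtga
CDCA7: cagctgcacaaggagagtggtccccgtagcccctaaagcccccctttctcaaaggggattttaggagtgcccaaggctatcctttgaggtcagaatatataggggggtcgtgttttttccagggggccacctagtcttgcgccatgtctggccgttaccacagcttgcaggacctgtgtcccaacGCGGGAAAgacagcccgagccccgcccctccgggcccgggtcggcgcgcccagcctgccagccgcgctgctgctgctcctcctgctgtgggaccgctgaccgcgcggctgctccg
CHAC1: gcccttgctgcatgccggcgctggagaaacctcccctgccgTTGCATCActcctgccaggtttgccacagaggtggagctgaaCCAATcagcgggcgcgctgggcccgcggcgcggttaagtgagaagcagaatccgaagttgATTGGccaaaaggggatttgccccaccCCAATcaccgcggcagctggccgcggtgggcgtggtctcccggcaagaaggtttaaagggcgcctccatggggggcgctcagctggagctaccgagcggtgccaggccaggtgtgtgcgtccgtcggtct
DACH2: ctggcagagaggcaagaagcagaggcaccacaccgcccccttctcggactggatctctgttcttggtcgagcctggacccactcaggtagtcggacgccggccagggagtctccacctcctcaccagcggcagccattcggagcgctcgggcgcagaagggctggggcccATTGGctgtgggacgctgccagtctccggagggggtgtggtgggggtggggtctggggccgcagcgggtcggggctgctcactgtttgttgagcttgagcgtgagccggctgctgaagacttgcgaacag
In KIF20A the capitals are 2 CCAAT boxes on the minus strand, which are 94 and 67 bases before the start. In CDCA7 they are an E2F motif on the minus strand. In CHAC1 they are 3 CCAAT boxes and, 209 bases before the start, a motif of the ATF4 type on the minus strand. In DACH2 they are 1 CCAAT box, but the RefSeq start of DACH2 was not found among the GENCODE transcripts, so its window may not be the promoter used. No match was found in these 4 windows to the cyclic AMP response element TGACGTCA, to AP-1 (TGANTCA), to the CArG box, to the p53 half-site or to the cell cycle homology region (CHR, TTTGAA or TTCGAA).

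Of 35116 promoters in the RefSeq table, 34.6% held a CCAAT box, 16.4% a CHR, 6.89% an E2F motif (TTTNNCGC) and 3.62% a motif of the ATF4 type (TGATGNAA). For the 13966 promoters matched to genes tested, these shares were 36.1%, 12.5%, 9.33% and 2.21%. The last 2 motifs were added after the differences were seen. A promoter was found for 50 of 59 replication genes, 55 of 66 mitotic genes and 30 of 35 stress response genes. In the replication list 25 of 50 promoters (50%) held the E2F motif, 3 the CHR and 27 (54%) a CCAAT box. In the mitotic list 7 of 55 held the E2F motif, 41 (74.5%) the CHR and 43 (78.2%) a CCAAT box. In the stress response list 22 of 30 (73.3%) held a CCAAT box and 5 (16.7%) the ATF4 type. The p53 half-site stood in 4 of 56 promoters of p53 targets (7.14%) against 6.63% of all promoters and 5.68% of those of genes tested. These counts describe short letters in a short window and show no binding.

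The list of replication genes comprised the MCM helicase and its loaders, the polymerases, the enzymes of nucleotide supply and the E2F and cyclin E genes that drive them. Of 59 genes tested, 55 fell from 4 h to 8 h (93.2%, against 7.50% of all genes) and 0 rose, with a median difference of -0.36. The 4 that did not pass were E2F8, RPA3, DBF4 and PRIM2, with differences between -0.14 and 0.04; they are named because they complete the count. The mean value of the list lay between 9.83 and 9.86 in the 4 h libraries and between 9.43 and 9.47 in the 8 h libraries, and it had been 9.88 to 9.92 in untreated cells. Against untreated cells, 4 of the 59 were higher and 13 lower at 4 h, while 1 was higher and 53 were lower at 8 h. Over all genes the shares against untreated cells were 7.47% higher and 9.72% lower at 4 h, and 10.5% higher and 13.3% lower at 8 h. Both comparisons share the untreated libraries. At 24 h the median difference from untreated cells had reached -1.28.

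MCM3, a subunit of the replicative helicase, had 11.26, 11.29 and 11.27 at 4 h and 10.42, 10.48 and 10.55 at 8 h (difference -0.79, SE 0.05, adjusted p = 3.36e-09). All 6 subunits MCM2 to MCM7 fell, by 0.23 to 0.79, and this family was singled out after its values were seen. UNG, the glycosylase that removes uracil from DNA, fell by 0.66. Among the regulators chosen in the same way, E2F1 fell by 0.55 and ORC1, which marks replication origins, by 0.54. In bulk RNA, fewer cells in S phase or mitosis and less RNA per cell cannot be told apart.

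The mitotic genes followed another course. Against untreated cells, 65 of 66 were lower at 4 h (against 9.72% of all genes) and all 66 at 8 h (against 13.3%). The medians were -0.85 and -1.06. From 4 h to 8 h, 29 of 66 fell (43.9%, against 7.50% of all genes) and 0 rose, with a median difference of -0.20. The list mean lay between 10.71 and 10.77 in untreated cells, 9.88 and 9.89 in the 4 h libraries and 9.62 and 9.66 in the 8 h libraries, before a further fall to between 8.77 and 8.86 by 24 h. PLK1, the kinase that drives mitotic entry, had 11.70, 11.79 and 11.82 in untreated cells, 10.51, 10.62 and 10.43 at 4 h and 9.67, 9.66 and 9.73 at 8 h (difference -0.83, SE 0.11, adjusted p = 2.46e-05). The falls of CCNB2, DLGAP5, CDCA3 and CCNB1, which encodes cyclin B1, were 0.72, 0.68, 0.67 and 0.46. At the other end of the list, CENPE (0.29, adjusted p = 0.0627), INCENP (0.17, adjusted p = 0.108) and AURKA (0.13, adjusted p = 0.569) had higher means at 8 h than at 4 h and did not pass. These 3 genes are named because other settings called them. With only the NCS groups at 4 h and 8 h in the fit, 39 mitotic genes fell and these 3 rose, and without H2O2 replicate 2 at 8 h, which enters the shared estimate of the spread, 40 fell and the same 3 rose.

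**Figure D2:**
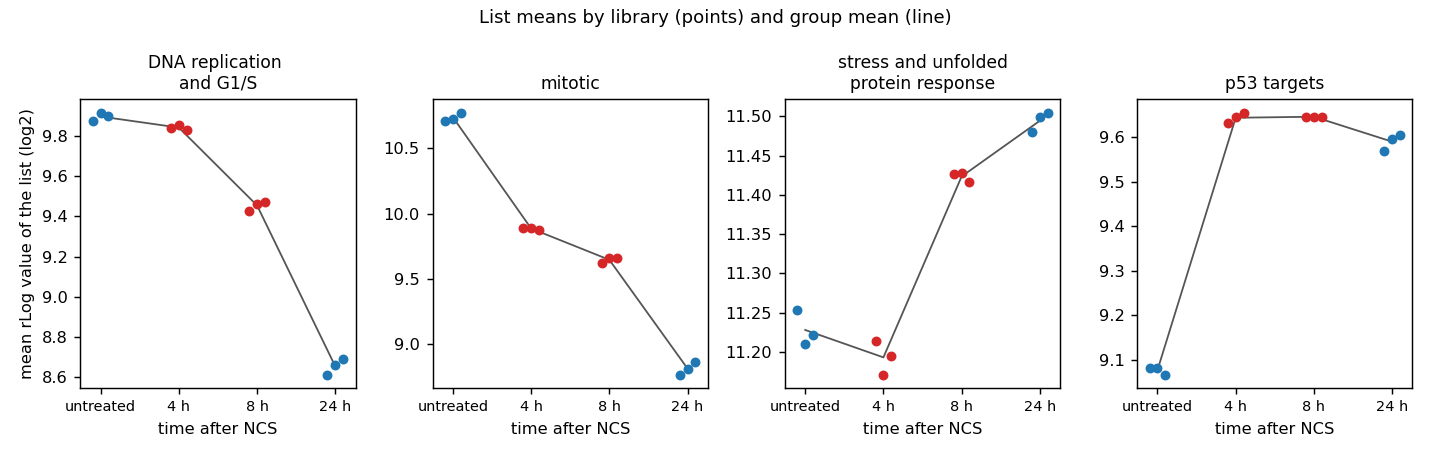
Mean rLog value (log2) of 4 gene lists in each untreated and NCS library (points, 3 a group, with 4 h and 8 h in red) and the group mean (line). Each panel has its own vertical scale. The replication mean lay slightly below its untreated level at 4 h (9.83 to 9.86 against 9.88 to 9.92). It had fallen further by 8 h (9.43 to 9.47). The mitotic mean had fallen by 4 h and the stress response mean rose after 4 h. The p53 target mean was level from 4 h (9.63 to 9.65) to 8 h (9.65 in each library).

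Falls were also called among the genes that repair breaks and signal them. In the list of homologous recombination and Fanconi anaemia genes, 20 of 31 fell (64.5%, against 7.50% of all genes) and 1 rose (3.23%, against 6.16%), with a median of -0.24. XRCC2, a recombination mediator, fell by 0.48, the helicase BLM by 0.45 and RAD54L, a motor protein of strand exchange, by 0.38. The gene that rose was RAD50, chosen after its value was seen, by 0.18. Of 22 genes of damage signalling, 11 fell (50%) and 2 rose (9.09%). The falls were led by CDC25A, a phosphatase that activates cyclin-dependent kinases (-0.54), CLSPN, a mediator of the checkpoint kinase CHEK1 that is also on the replication list (-0.46), H2AFX, the histone phosphorylated at breaks (-0.39), and RIF1 (-0.26). TP53BP1 and RAD17 rose by 0.14 and 0.18, and were also chosen after their values were seen. Of 15 end joining genes 5 fell (33.3%), led by POLQ (-0.26), PRKDC (-0.20) and C9orf142 (-0.19), and 1 rose, POLL (0.15, lost in 5 of the alternatives). At 4 h 6 of the 31 recombination genes had been lower than in untreated cells, against 24 at 8 h. Of all genes 9.72% were lower than in untreated cells at 4 h and 13.3% at 8 h.

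The p53 targets, 69 genes in 4 lists, were high at both times. Against untreated cells 55 were higher and 2 lower at 4 h, and 55 were higher and 1 lower at 8 h, with medians of 0.42 and 0.51. The shares of all genes were 7.47% higher and 9.72% lower at 4 h, and 10.5% and 13.3% at 8 h. From 4 h to 8 h, 14 rose (20.3%, against 6.16% of all genes) and 16 fell (23.2%, against 7.50%). The list mean was 9.63 to 9.65 at 4 h and 9.65 in all 3 libraries at 8 h.

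Genes that feed back on p53 were among the falls. MDM2, the ubiquitin ligase that marks p53 for destruction, had 11.72, 11.75 and 11.63 in untreated cells, 13.21, 13.30 and 13.25 at 4 h and 12.87, 12.85 and 12.76 at 8 h (difference -0.43, SE 0.06, adjusted p = 4.39e-05). It thus came down from its 4 h level and stayed well above the untreated one. PPM1D, the phosphatase that switches off ATM signalling, fell by 0.28 from 9.86 to 9.91 down to 9.56 to 9.69. TP53INP1, a cofactor of p53, fell by 0.27. CCNG2, described above, rose, while CCNG1, PHLDA3, TRIAP1, MDM4, RFWD2 and RCHY1 did not pass, with differences between -0.14 and 0.11.

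In the arrest list 4 of 11 genes fell (36.4%, against 7.50% of all genes) and 0 rose (against 6.16%). PLK2, a kinase of the centrosome cycle, fell by 0.38 and BTG2, an antiproliferative cofactor of mRNA deadenylation, by 0.25. BTG2 had 7.47, 7.34 and 7.37 in untreated cells, 9.43, 9.58 and 9.48 at 4 h and 9.25, 9.23 and 9.26 at 8 h (adjusted p = 0.017). It lost its call without replicate 2 of either time, with differences that stayed negative. TP53I11 fell by 0.23 and LIF, a cytokine, by 0.18, the call of LIF being lost with only the NCS groups at 4 h and 8 h in the fit and without 1 of 3 single libraries. CDKN1A, the inhibitor of cyclin-dependent kinases p21, had 15.70, 15.69 and 15.71 at 4 h and 15.59 in each library at 8 h. Although its libraries did not overlap, the difference of -0.11 did not pass (SE 0.07, adjusted p = 0.449), with 1 estimate of spread shared by all 7 groups. GDF15, a secreted stress hormone, had 11.17, 11.21 and 11.24 at 4 h and 11.45, 11.41 and 11.35 at 8 h (difference 0.20, adjusted p = 0.31), far above the untreated 9.16 to 9.19.

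In the death list 5 of 22 genes rose (22.7%, against 6.16% of all genes) and 2 fell (9.09%, near the 7.50% of all genes). CYFIP2 rose by 0.55, from 6.21, 6.32 and 6.29 at 4 h to 6.82, 6.72 and 6.93 at 8 h (adjusted p = 1.07e-04). SPATA18, a mediator of mitochondrial quality control, rose by 0.42 and FDXR, a mitochondrial reductase, by 0.25, the last losing its call when any 1 of the 6 libraries was left out. BBC3, which encodes the BH3-only protein PUMA, fell by 0.31, from 8.85, 8.80 and 8.91 at 4 h to 8.55, 8.53 and 8.56 at 8 h (adjusted p = 0.00307). PMAIP1, which encodes the BH3-only protein NOXA, had 10.38, 10.39 and 10.42 at 4 h and 10.56, 10.56 and 10.38 at 8 h, and these overlapped (difference 0.11, adjusted p = 0.387). The death receptor FAS did not pass either, at -0.05. Among repair and metabolism targets 8 of 26 rose (30.8%, against 6.16% of all genes) and 7 fell (26.9%, against 7.50%). CMBL rose by 0.34, TRIM22 by 0.31 and ASCC3, a helicase of alkylation repair, by 0.27, while SESN1, a sestrin that restrains growth signalling, fell by 0.33.

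**Figure D3:**
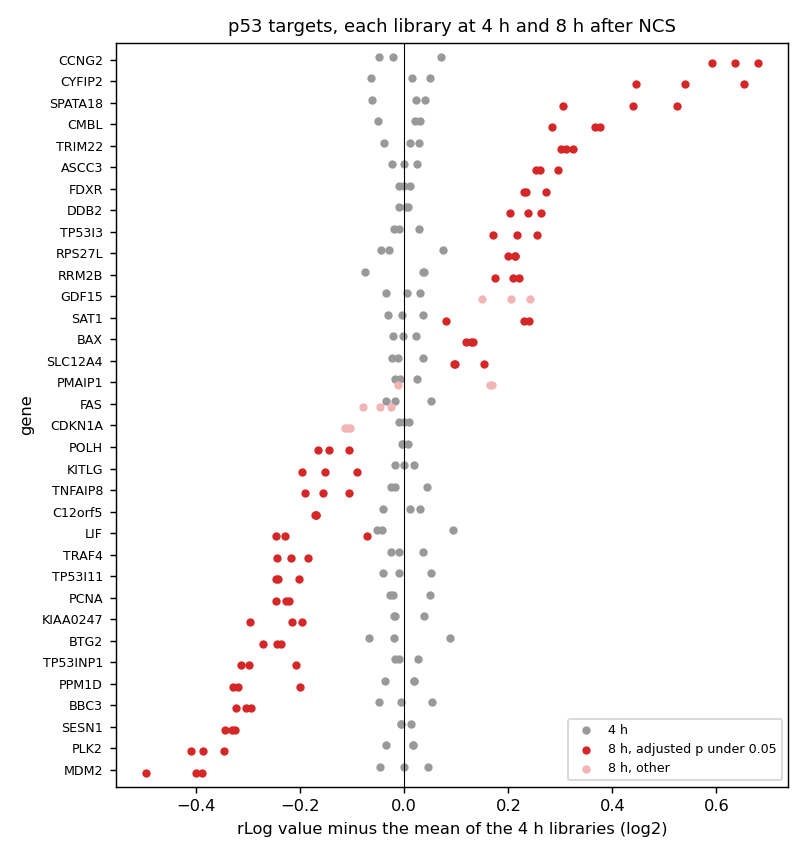
The 30 p53 targets that passed the test from 4 h to 8 h, with CDKN1A, GDF15, FAS and PMAIP1 added, ordered by their difference. The horizontal axis is the rLog value minus the mean of the 4 h libraries (log2), with grey points for 4 h libraries and red points for 8 h libraries (pale where the adjusted p was 0.05 or more). MDM2, PLK2 and SESN1 lie at one end and CCNG2, CYFIP2 and SPATA18 at the other.

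Genes of the integrated stress and unfolded protein responses rose between 4 h and 8 h. Of 35 genes, 24 rose from 4 h to 8 h (68.6%, against 6.16% of all genes) and 1 fell, with a median of 0.19. The list mean lay between 11.17 and 11.21 at 4 h, between 11.42 and 11.43 at 8 h and between 11.21 and 11.25 in untreated cells. Against untreated cells 3 were higher and 8 lower at 4 h, and 19 were higher and 1 lower at 8 h. The shares of all genes were 7.47% higher and 9.72% lower at 4 h, and 10.5% and 13.3% at 8 h. DDIT3 had 8.78, 8.60 and 8.73 at 4 h and 9.31, 9.31 and 9.42 at 8 h (adjusted p = 3.56e-06). DDIT4, an inhibitor of the growth kinase mTORC1, rose by 0.55, the chaperone partner DNAJB9 by 0.50 and TRIB3, a pseudokinase that restrains DDIT3, by 0.49. ATF4 itself did not pass (0.14, adjusted p = 0.142). Among members picked after their values were seen, the chaperone HSPA5 rose by 0.47, from 15.14, 15.06 and 15.11 at 4 h to 15.57, 15.58 and 15.57 at 8 h. The chaperone HYOU1 rose by 0.33 and the factor XBP1 by 0.38, so genes of the endoplasmic reticulum were among the rises as well. The 1 fall was that of ATF5, by 0.19.

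**Figure D4:**
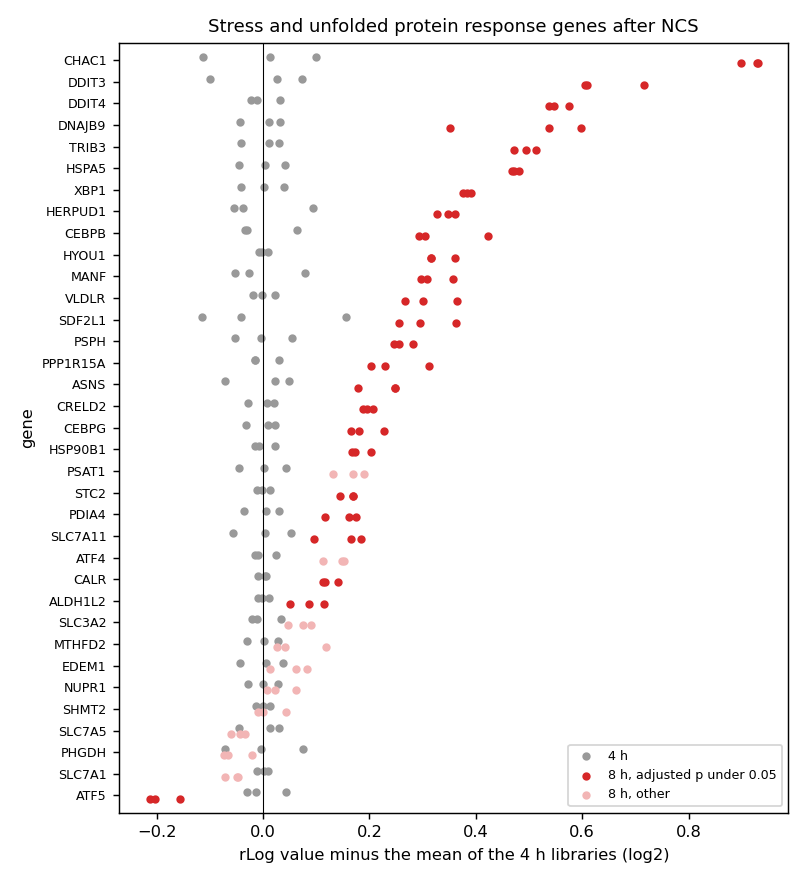
The 35 genes of the integrated stress and unfolded protein responses, with axes and colours as in the plot of p53 targets. The 24 genes that rose run from CHAC1 (0.92) down to ALDH1L2 (0.08), and ATF5 (-0.19) is the fall.

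The immediate-early genes respond within minutes to growth factors and stress. Of 33, 8 fell (24.2%, against 7.50% of all genes) and 2 rose (6.06%, against 6.16%), with a median of -0.08. NR4A1, a nuclear receptor, fell by 0.43, BHLHE40, a repressor of the clock, by 0.40 and SRF, the factor that drives many of the group, by 0.31. JUNB fell by 0.28, a call lost in 5 of the alternatives. MYC and KLF6 rose by 0.17 and 0.14, KLF6 being named because it makes up the count. FOS had 5.96, 5.94 and 5.99 at 4 h and 5.98, 5.85 and 5.86 at 8 h, and these overlapped at a level below the untreated 6.82 to 6.93. JUN and EGR1 did not pass, at -0.03 and 0.20. The number that fell depended on the setting, with 13 after alignment of library medians or with a minimum mean value of 5, and 5 without replicate 1 at 4 h or replicate 2 or 3 at 8 h. Leaving out 1 library of another group gave 8 to 12.

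Of 30 genes of nucleolar assembly and RNA polymerase I, 15 fell (50%, against 7.50% of all genes) and 0 rose, led by DKC1 (-0.31), RRS1 (-0.26), NOLC1 (-0.23) and NOP56 (-0.22). Of 76 ribosomal protein genes, 0 passed in either direction and the median was -0.01. In the inflammatory list 10 of 32 fell (31.3%) and 2 rose (6.25%). RELB, a subunit of NF-kB, fell by 0.49, and its inhibitors NFKBIE and NFKBIA and the cytokine genes IL8 and IL11 fell by 0.39, 0.31, 0.34 and 0.33, of which NFKBIA was picked after its value was seen. In the YAP and TGF-beta list 7 of 32 fell (21.9%), led by BAMBI (-0.41), and 1 rose.

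The step was set against the same step in H2O2, which shares no library with it. The change from 4 h to 8 h was more positive in NCS for 3551 genes (18%) and more negative for 2897 (14.7%). With library medians aligned the split turned to 2773 more positive and 4517 more negative, so the direction of the split over all genes depended on the scaling. By size over 1, 33 genes were more positive and 11 more negative in NCS, and without H2O2 replicate 2 at 8 h these were 35 and 18.

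For replication genes the change was more negative in NCS in 28 of 59 (47.5%, against 14.7% of all genes) and more positive in 1, with medians of -0.36 in NCS and -0.21 in H2O2. Without H2O2 replicate 2 at 8 h, 26 were more negative and 2 more positive. CCNE2 fell by 1.08 in NCS and by 0.24 in H2O2, a difference of -0.84 (SE 0.07, adjusted p = 1.39e-07), and MCM3 fell by 0.79 and by 0.48, a difference of -0.31. Without that library the differences were -0.85 and -0.27. For mitotic genes the change was more positive in NCS in 16 of 66 (24.2%, against 18% of all genes) and more negative in 2, with medians of -0.20 in NCS and -0.45 in H2O2. Without H2O2 replicate 2 at 8 h, 46 were more positive (69.7%) and 1 more negative, while with only the NCS and H2O2 groups at 4 h and 8 h in the fit the count was 11 and 1, so the reading of this list depends on that library and on the setting. In that library the mitotic mean was 10.08, against 9.69 and 9.74 in replicates 1 and 3. PLK1 fell by 0.83 in NCS and 1.00 in H2O2, a difference of 0.17 that did not pass (adjusted p = 0.436), and without that library the difference was 0.36 (adjusted p = 0.00205).

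Immediate-early genes also differed. Their change was more positive in NCS in 23 of 33 (69.7%, against 18% of all genes) and more negative in 2, with medians of -0.08 in NCS and -0.43 in H2O2. FOSB, a partner of JUN, had 7.32, 7.37 and 7.16 at 4 h and 7.05, 6.92 and 6.97 at 8 h in NCS, a difference of -0.31 that did not pass (adjusted p = 0.0697). In H2O2 it fell by 2.98, and the difference between both changes was 2.67, the most positive of all genes, and 2.72 without H2O2 replicate 2 at 8 h. The counts of the list without that library were 23 and 3. In CELSR2, PPP1R10, PDE4C and ITGA7 the difference was between 1.40 and 1.79 and the NCS change between -0.10 and 0.14, so that most of the difference lay in the H2O2 change. The same held at the other end for UNC5B, ZNF788 and MKNK2, with NCS changes between -0.09 and 0.00 and H2O2 changes between 1.16 and 1.32. PLCL2 is the gene among the 5 most negative in which NCS moved most, by -0.52 against 0.75 in H2O2. For p53 targets the change from 4 h to 8 h was more negative in NCS in 33 of 69 (47.8%, against 14.7% of all genes) and more positive in 11 (15.9%, against 18%). MDM2 fell by 0.43 in NCS and rose by 0.60 in H2O2, a difference of -1.02 (adjusted p = 4.20e-08), and without H2O2 replicate 2 at 8 h this difference was -1.12 and the counts were 37 and 11. In the stress response list 15 were more positive and 13 more negative in NCS, which turned to 14 and 16 with library medians aligned or without H2O2 replicate 2 at 8 h.

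**Figure D5:**
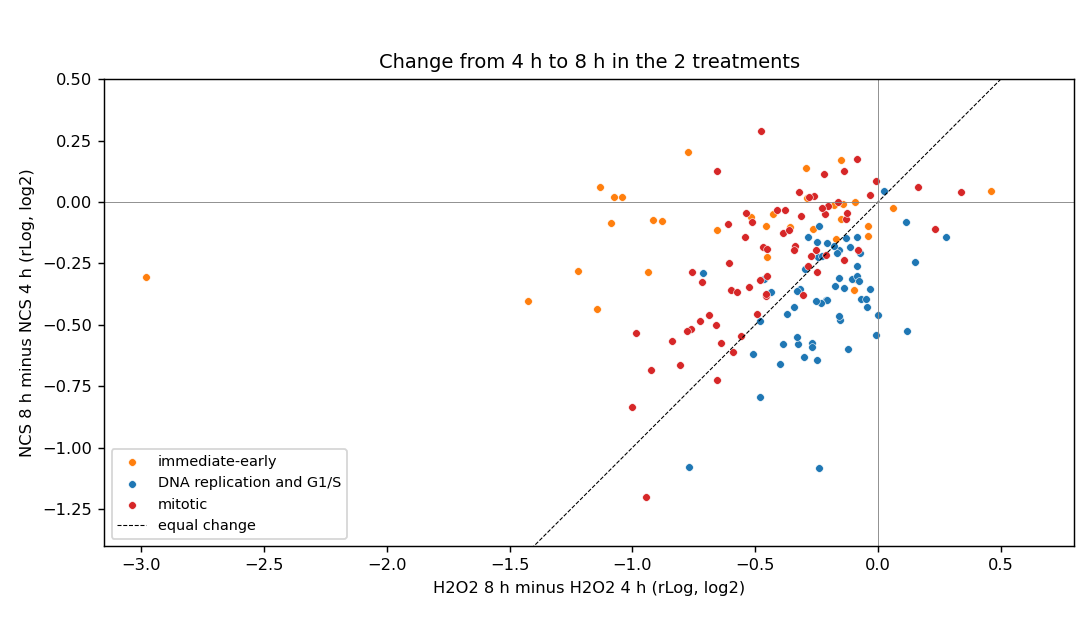
The change from 4 h to 8 h in H2O2 (horizontal axis) and in NCS (vertical axis), both as differences of rLog values (log2), for immediate-early (orange), replication (blue) and mitotic genes (red). On the dashed line both changes are equal. Most replication genes lie below the line and most immediate-early and mitotic genes above it, with FOSB at the far left (-2.98 in H2O2 and -0.31 in NCS). Of the 66 mitotic genes, 16 passed the interaction test as more positive in NCS, and 46 without H2O2 replicate 2 at 8 h.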

How the data were processed

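RNA-seq was performed on 21 libraries of hTERT-HPNE cells in 7 groups of 3 biological replicates. The deposited values are log2 values that the authors made with the rLog transformation of DESeq2 from reads aligned with HISAT2 and counted with htseq-count. The submitters' processing notes name hg19, and the annotation and the versions are not given in the sources used here. Read counts were not analysed here. Library depth is therefore unknown, and count-based intervals are not given. The rLog transformation draws differences toward 0, so fold changes of genes with few reads are understated.

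Groups were taken from the labels. One linear model with a mean for each group was fitted to all 19694 genes whose values varied with limma 3.58.1 in R 4.3.3, with a mean-variance trend and no block, and NCS at 8 h was tested against NCS at 4 h. The difference between the NCS change and the H2O2 change was tested as an interaction in the same fit. The p-values are two-sided and were adjusted by the method of Benjamini and Hochberg over all genes, with a threshold of 0.05. For a single gene, an exact permutation test of 3 against 3 libraries cannot go below 0.1 and was not used. In simulated data for this comparison, over 19694 genes, changes were planted only in genes with a mean value over 5. Noise was normal and independent, and all other groups had equal means. There, 40 of 50 genes changed by 0.3 and all 50 of 50 changed by 0.5 or by 1 in either direction were recovered, and 5.47% of calls were unchanged genes. Far fewer genes were changed than were called in the real data. These figures therefore do not cover genes with lower means or the real fit as a whole. Alternatives were median alignment, quantile normalization, a minimum mean value of 5, only the groups compared, no trend, a replicate block, a log2 limit of 0.58 and each library left out in turn. Those that left out libraries outside the groups compared were added after seeing the data.

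The genes named were the 15 largest rises and 15 largest falls among called genes whose libraries did not overlap, up to 4 called genes of largest difference in each list, 18 genes of the damage, immediate-early, mitotic and clock programs whatever their values, the 5 largest interactions in each direction and any member of a list of up to 12 genes. Others were chosen after their values were seen and are named as such. The comparison, the lists and this rule were chosen with earlier results of these data known. BHLHE40, BTG2, CLSPN, LIF, SLC7A11 and 6 other genes stand in more than 1 list. In the table, 28 symbols had been turned into dates and 2 symbols were repeated, and these were not named. Some genes that the rule selects are not reported here. Tables and plots were made with Python 3.11.15, numpy 2.4.6, pandas 2.3.3 and matplotlib 3.10.9. Promoters were matched to genes by symbol.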

Additional observations from a re-analysis of the deposited data

Results flagged for a closer look

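For 16 named genes the change from 4 h to 8 h differed between NCS and H2O2 by more than 1 on the log2 scale, by the interaction test in limma. The values below are the NCS change minus the H2O2 change. The difference was positive for FOSB (2.67), CELSR2 (1.79), PPP1R10 (1.62), PDE4C (1.42), ITGA7 (1.40), ERRFI1 (1.07), DUSP8 (1.04), BHLHE40 (1.02) and LIF (1.02). It was negative for UNC5B (-1.32), PLCL2 (-1.27), ZNF788 (-1.25), MKNK2 (-1.24), NHSL1 (-1.12), GDF15 (-1.05) and MDM2 (-1.02).

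In LIF and BHLHE40 both treatments showed a fall, of 0.18 and 0.40 in NCS and of 1.20 and 1.42 in H2O2. In MDM2, PLCL2 and NHSL1 the means moved in opposite directions, by -0.43, -0.52 and -0.23 in NCS and by 0.60, 0.75 and 0.89 in H2O2. GDF15 changed by 0.20 in NCS, which did not pass, and by 1.25 in H2O2.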

How the results depend on the processing

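Of 138 called differences of named genes, 27 lost their call in at least 1 alternative and none changed direction. At a log2 limit of 0.58 in place of 1, 5 genes were higher and 24 lower. With a minimum mean value of 5, which left 11681 genes, 2284 genes had a more positive change in NCS than in H2O2, 13 immediate-early genes fell and 2 mitotic genes rose. With library medians aligned, 4517 genes had a more negative change in NCS, 13 immediate-early genes fell and 2 mitotic genes rose. With only the groups compared 3 mitotic genes rose. Without each library in turn, 883 to 1429 genes were higher and 1109 to 1707 lower, 0 and 3 passed the limit of 1, 3138 to 3747 genes had a more positive and 2611 to 3033 a more negative change in NCS, 12 to 18 p53 targets rose and 11 to 20 fell, 2 immediate-early genes rose and 5 to 12 fell, and 0 to 3 mitotic genes rose and 27 to 40 fell. The highest counts of higher and lower genes and of mitotic genes, 1429, 1707, 3 and 40, came without H2O2 replicate 2 at 8 h. Leaving out that library changes the shared estimate of the spread and not the differences between the NCS groups. Why that library lay apart was not tested. The labels do not say whether a replicate number marks a shared culture or day. Same-numbered NCS libraries at 4 h and 8 h deviated from their group means with correlations of -0.08, 0.04 and -0.07, against a mean of 0.02 for different numbers. No shared deviation was seen, but this cannot show that the samples were unpaired. With the replicate block 1216 genes were higher, 1524 lower and 1 mitotic gene rose. Depth is unknown, so a difference that did not pass may lie below what these libraries can show.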

Other observations

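Smaller lists are given by the members that passed from 4 h to 8 h in NCS, at an adjusted p under 0.05 from limma. Over all genes 6.16% rose and 7.50% fell. The shares of the hypoxia and glycolysis, ID and BMP and clustered histone lists lay near or below these, and the MAP kinase phosphatase list rests on 1 gene. Of 24 circadian clock genes 5 rose and 3 fell. The repressors NR1D1 and NFIL3 rose by 0.35 and 0.36 and the activator ARNTL by 0.27. Among the genes that close the feedback loop, PER1 rose by 0.24, while PER2 and CRY1 fell by 0.33 and 0.32. The call of PER2 was lost with only the groups compared. Of 8 genes of glucose-sensing arrestins and their regulators 3 rose, among them TXNIP (0.37), which restrains glucose uptake, and ARRDC3 (0.37), while ARRDC2 fell by 0.23. Of 31 interferon-stimulated genes 4 rose and 0 fell, with STAT2 at 0.37 and XAF1 at 0.25.

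Of 27 cytosolic heat shock genes 12 fell and 1 rose. HSPA2 and the co-chaperone DNAJB1 fell by 0.48 and 0.20, and HSPA4L rose by 0.16. HSPA1B and HSPA1A fell by 0.48 and 0.24, but they are near-identical copies whose reads may be split between them. The call of HSPA1A was lost with only the groups compared and when certain single NCS libraries were left out. Of 30 sterol and fatty acid synthesis genes 9 fell and 0 rose, with INSIG1 at -0.34, SCD at -0.33 and FASN at -0.28. Of 24 antioxidant genes 4 fell, led by HMOX1 (-0.43), and 1 rose. With each library left out in turn, 1 to 7 of them fell and 0 to 1 rose. The gene that rose, SLC7A11, also lost its call with no mean-variance trend. Of 26 hypoxia and glycolysis genes 2 rose, with HK2 at 0.27, and 3 fell, with PFKFB3 at -0.22. Of 21 genes of the EGF receptor and its feedback 2 rose and 3 fell, with ETV4 at -0.30. With each library left out in turn, 1 to 3 of these rose and 1 to 3 fell. Of 10 MAP kinase phosphatases 1 rose, DUSP6 by 0.16, a call lost in 5 of the alternatives. Of 8 mRNA decay factors 1 rose and 3 fell, with BTG3 at -0.36. For the decay factors, leaving out each library in turn gave 0 to 1 rise and 2 to 3 falls. Of 12 ID and BMP genes 1 fell, GREM1 by 0.13, a call lost with quantile normalization. Of 62 clustered histone genes tested 3 rose, led by HIST2H2BE (0.32) and HIST1H2BD (0.29), and 1 fell. The call of HIST1H2BD was lost without NCS replicate 1 at 8 h. The library preparation selected polyadenylated RNA, and most histone mRNAs of these clusters carry no poly(A) tail.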
